A study of Mus musculus with 96 samples.

Results

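Ribosome biogenesis factors are the proteins that transcribe, cut, modify and assemble ribosomal RNA on its way to a finished ribosome, and most of them work in the nucleolus. Here 40 genes of this group, a list named by the function of their proteins, were followed through C2C12 cells whose respiratory chain had been blocked at different points. The table of estimated counts holds 54146 Ensembl genes and 4 transgenes, and all 40 genes were found in it by symbol. They comprise 4 genes of RNA polymerase I and its initiation, 4 box C/D and 4 H/ACA proteins of the small nucleolar ribonucleoproteins (snoRNPs), 4 abundant nucleolar proteins, 7 proteins of the small subunit processome, 11 factors of the large subunit and 6 late factors of the small subunit.

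C2C12 is a mouse myoblast line that fuses into myotubes when serum is lowered, and polyadenylated RNA of 96 samples in 35 groups was sequenced (26 groups with 3 replicates and 9 with 2). Myoblasts were stable lentiviral lines in 10% dialyzed fetal bovine serum in which 300 ng/ml doxycycline induced luciferase (Luc, the control), LbNOX (a bacterial enzyme that oxidizes NADH to make water), mitoLbNOX (the same enzyme sent to mitochondria) or NDI1 (a yeast NADH dehydrogenase that does not pump protons). For 10 hours they received DMSO, piericidin (an inhibitor of complex I), antimycin (complex III) or oligomycin (ATP synthase), though not every line received every inhibitor, and Luc and LbNOX lines also received DMSO or chloramphenicol, an inhibitor of mitochondrial translation, for 48 hours. Cells that carried no virus were grown in 20% serum, moved to 2% dialyzed horse serum, and treated for 10 hours either 24 hours later (24-hour cells) or 4 days later (myotubes). The myotubes also received the uncoupler BAM15, oligomycin together with piericidin or BAM15, or hypoxia with and without oligomycin, and another set of myotubes carried adenovirus with eGFP (GFP) or with eGFP and LbNOX. By the study's methods hypoxia began the night before treatment and continued through it. It thus lasted longer than the 10 hours of the other myotube treatments. Virus, doxycycline and serum changed together with the state of the cells, so that their parts in a difference between myoblasts and the other states cannot be told apart. No label says that replicates came from separate cultures, and the p-values measure the spread between these samples, which may be technical.

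Ribosomal RNA is made by RNA polymerase I as a long precursor. Box C/D snoRNPs methylate it, H/ACA snoRNPs convert uridines to pseudouridines, the processome folds and cuts the part that becomes the small subunit, and further factors mature both subunits until they are exported from the nucleus. Cells that grow make many ribosomes, the transcription factor Myc is a well-known activator of these genes, and myoblasts that leave the cell cycle to become muscle make fewer.

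Total estimated counts per sample ran from 6458295 to 15366745 with a median of 10336588.5. Levels are given as CPM, counts scaled to a fixed library total, with TMM normalisation over all 96 libraries unless another scale is named, and a gene is called when the adjusted p of edgeR's quasi-likelihood test, corrected over all genes of the comparison, was below 0.05. The 7 markers of myotubes summed to 18.1 to 23.1 CPM in Luc myoblasts with DMSO, 13242 to 13806 in 24-hour cells and 14083 to 14455 in myotubes, which sets the myoblasts apart from both other states. The near sums of those states do not show that they were equally differentiated. The paper describes the cells 24 hours after the switch as mostly out of the cell cycle and not yet near differentiation. The 7 markers of proliferating cells summed to 1670.5 to 1695 CPM in those myoblasts, 280.4 to 317 in 24-hour cells and 167 to 213 in myotubes, and 5 markers of immune, endothelial, epithelial and fat cells never summed to more than 11.7 CPM. In bulk RNA, fewer cells with a transcript and less of it per cell cannot be told apart.

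The promoters of these genes are shown first, because Myc binds the E-box CACGTG. Promoter sequence (RefSeq, GRCm38.p6, 250 bases before to 50 after the start) was found for 35 of the 40 genes, in 44 promoters, and was not found for Bop1, Fbl, Npm1, Rrp12 and Rrs1. The motif CACGTG, which reads alike on both strands, lay in 9 of the 44 (20.5%), as against 2349 of 32851 promoters of all genes (7.15%). Rrn3 held it at 2 places, 1 of them shortly before the start. The windows below run 5′ to 3′ on the strand of the gene, with the E-box in capitals, and are cut to at most 30 bases.
Rrn3, distal (chr16:13780472-13780501, plus strand): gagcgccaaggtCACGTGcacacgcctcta
Rrn3, proximal (chr16:13780639-13780668, plus strand): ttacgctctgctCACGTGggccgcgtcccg
Nop2 (chr6:125131811-125131840, plus strand): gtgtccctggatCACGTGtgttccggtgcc
Pes1 (chr11:3963965-3963994, plus strand): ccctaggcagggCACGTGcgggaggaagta
Utp4 (chr8:106893643-106893672, plus strand): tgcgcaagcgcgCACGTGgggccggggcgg
Wdr43 (chr17:71616220-71616249, plus strand): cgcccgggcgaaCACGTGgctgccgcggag
Tsr1 (chr11:74898092-74898121, plus strand): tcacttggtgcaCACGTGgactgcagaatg
Ltv1 (chr10:13193092-13193121, minus strand): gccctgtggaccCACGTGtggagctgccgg
The Mybbp1a and Utp20 promoters held the motif too. The element TGATGNAA, which Atf4 can bind, was searched on both strands and lay in 1 of the 44 promoters (2.27%; 3.97% of all promoters), that of Nop14, where it was read from the other strand and is given in capitals below. A match of letters is a description of the sequence and not a site of binding.
Nop14 (chr5:34660109-34660138, minus strand): tgggcgtggttTTACATCAgcatcctatgc

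The genes lie apart on the genome (GRCm38, GENCODE M21), for example Nop56 at chromosome 2, 130274430 to 130279313, Nop14 at chromosome 5, 34638536 to 34660148, Ncl at chromosome 1, 86344719 to 86359400 and Rrs1, a gene of 1 exon, at chromosome 1, 9545408 to 9547455. Their introns are themselves a source of ribosome biogenesis: 7 of the 40 hold 21 snoRNA genes, of which Nop56 holds 5, Nop58 4, Ncl, Gnl3 and Wdr43 3 each, Tsr1 2 and Dkc1 1. The exons of 17 members overlap an exon of a gene on the opposite strand, by up to 1240 bases for Tsr1 and Srr, 598 for Noc2l and Samd11 and 361 for Bysl and Ccnd3, and the libraries did not keep the strand, so that reads of such pairs cannot be told apart.

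In Luc myoblasts with DMSO the 40 transcripts together made up 6072 ± 104 (SD, n = 3) CPM of the library total. Per kilobase of the merged annotated exons of a gene, Npm1, which encodes the histone chaperone and nucleolar scaffold nucleophosmin, stood highest at 512 ± 13.0 CPM per kilobase (SD, n = 3). It was followed by the H/ACA protein Nhp2 at 131 ± 2.63, by Ncl (nucleolin, an RNA-binding protein of the nucleolus) at 94.9 ± 3.15, by Bop1 at 66.1 ± 2.63 and by Nop56 at 60.7 ± 0.794 CPM per kilobase. At the other end stood Gar1 at 1.41 ± 0.109 and Utp20 at 3.84 ± 0.125 CPM per kilobase. The order depends on that length: the merged exons of Ncl span 10188 bases and those of Nhp2 1146, and before division by length Ncl stood at 967 CPM and Nhp2 at 149.7 CPM. Ncl and Npm1 alone gave 25.2% to 42.1% of the summed level in a library. In myotubes the order per kilobase was Npm1 (139.9 ± 5.04), Bop1 (56.1 ± 3.46), Nhp2 (47.3 ± 2.34), Nop10 (38.5 ± 2.25) and Ncl (28.8 ± 1.26), so that Bop1 and Nop10 stood further up than in myoblasts.

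Most members repeated closely. The replicate SD, pooled over the 35 groups on the log2 scale, had a median of 0.098 over the members. Rrs1 was the exception at 0.75, followed by Gar1 at 0.37, which had 4 to 115 counts a library, and by Fbl at 0.35. Values of these 3 genes are therefore less firm than those of the others.

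The first comparison asked how myoblasts answered each block of respiration. Nearly all of these transcripts rose with each inhibitor. In Luc myoblasts 39 members rose and 1 fell with piericidin, when 30.9% of the 11981 genes tested were called higher and 30.8% lower. With antimycin 37 rose and 1 fell, when 32.1% of the 11981 genes tested were called higher and 31.1% lower. With oligomycin 39 rose and none fell, when 24.5% of the 11981 genes tested were called higher and 26.3% lower. For later comparisons the same shares over all genes tested are given as the background. The median log2 fold change of the 40 members was 0.90, 0.76 and 0.72, while that of all genes was -0.0036, -0.0048 and -0.015. The summed level went from 6072 ± 104 (SD, n = 3) CPM of the library total with DMSO to 9865 ± 139 (SD, n = 3) under piericidin, 8466 ± 128 (SD, n = 3) under antimycin and 9493 ± 201 (SD, n = 3) under oligomycin. No treated library came near the DMSO libraries in that sum, as the plot of summed levels shows.

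**Figure D1:**
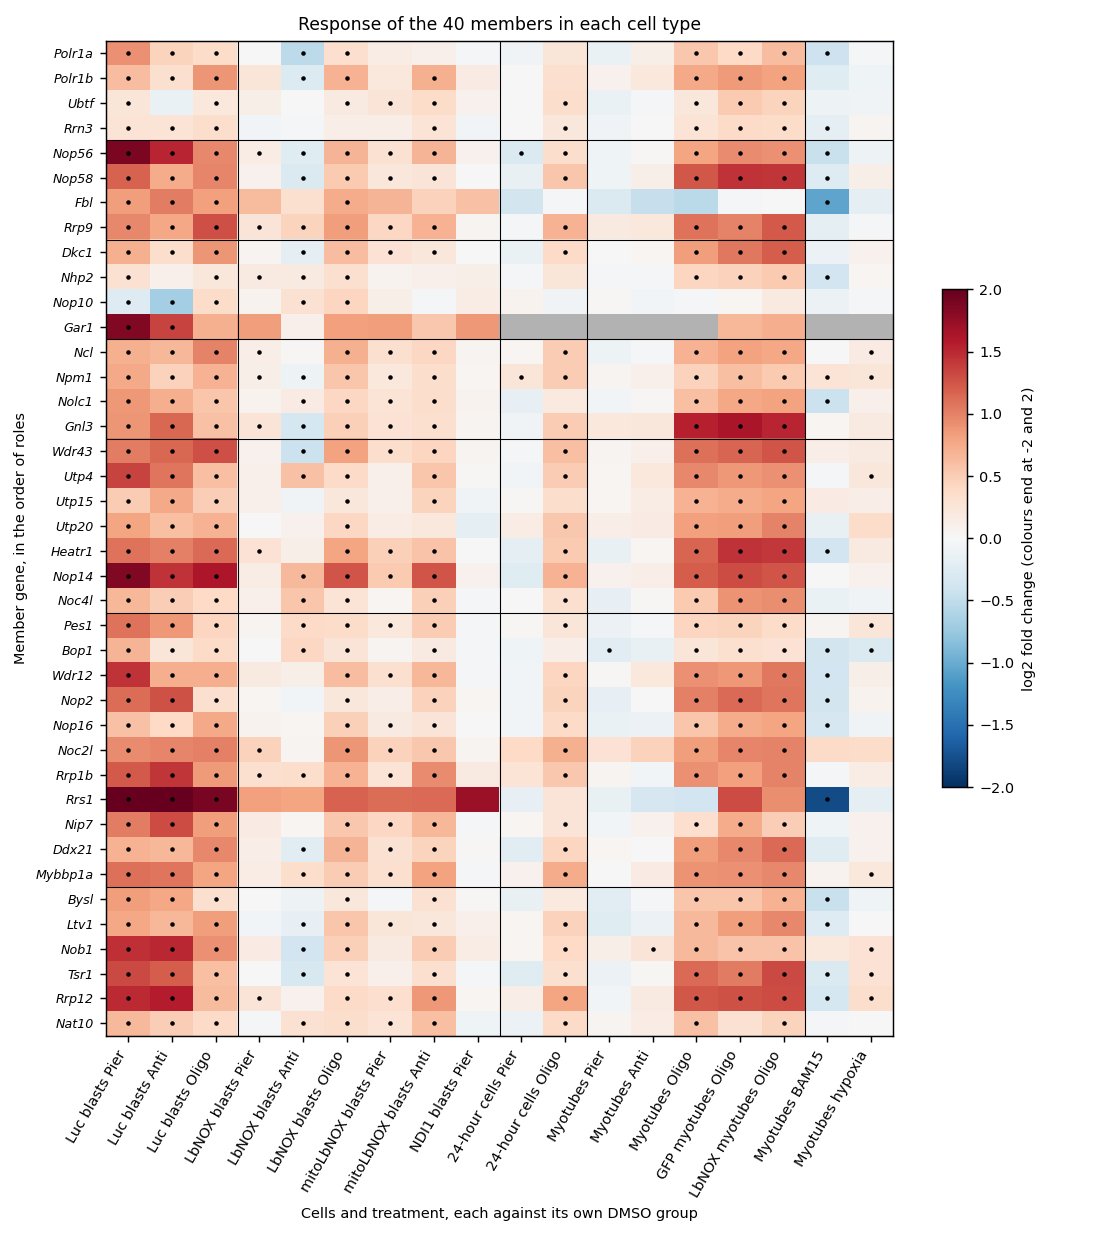
Log2 fold changes of the 40 members (rows, in the order of the roles, with lines between roles) for each treatment against the DMSO group of the same cells (columns; Pier, piericidin; Anti, antimycin; Oligo, oligomycin). Red is higher and blue lower, a dot marks an adjusted p below 0.05 in edgeR and grey marks a gene not tested; the columns of Luc myoblasts and the oligomycin columns of myotubes are mostly red with dots, and Nop10 is blue in Luc myoblasts with piericidin and antimycin.

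**Figure D2:**
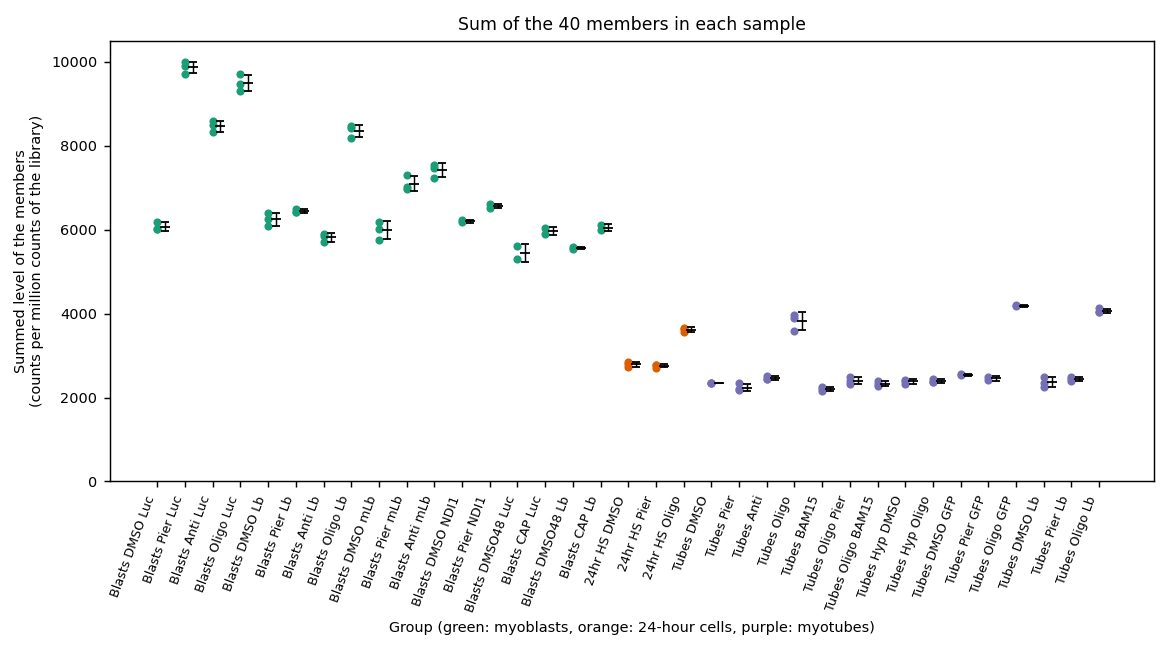
Summed level of the 40 members in every library (points) by group, in CPM of the library total, with the group mean and SD as bars beside the points (green, myoblasts; orange, 24-hour cells; purple, myotubes; Lb, LbNOX; mLb, mitoLbNOX; CAP, chloramphenicol; Hyp, hypoxia). Luc myoblasts with an inhibitor lie above those with DMSO, and among 24-hour cells and myotubes the groups with oligomycin alone in normal oxygen lie highest.

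The scale matters for the size of these changes. With library totals alone in place of TMM, a setting chosen after the data were seen, the median of all genes moved to -0.24 for piericidin, -0.30 for antimycin and -0.15 for oligomycin, and the median of the members to 0.66, 0.47 and 0.59. On that scale 36 were higher and 1 lower with piericidin, 30 were higher and 3 lower with antimycin and 37 were higher and 0 lower with oligomycin, and of all called genes 2410 were higher and 5175 lower with piericidin, 2290 and 5647 with antimycin, and 2148 and 4154 with oligomycin (by TMM 3707 and 3685, 3844 and 3724, and 2935 and 3146). The 7 markers of proliferating cells summed to 1670.5 to 1695 CPM with DMSO, 1220.2 to 1286 with piericidin, 917 to 957 with antimycin and 1231 to 1278 with oligomycin. Of the 7, 6 fell and Ccnb1 rose with piericidin (0.18 on the log2 scale), 7 fell with antimycin, and 6 fell with oligomycin, Ccnb1 not being called (0.03). The 4 markers of undifferentiated or reserve cells summed to 608 to 621 CPM with DMSO and 258 to 277, 418 to 452 and 224 to 236 with the inhibitors in the same order, with Myf5 higher (2.39, 3.62 and 0.53) and Id1, Id3 and Pax7 lower with each. The 7 markers of myotubes summed to 27.2 to 33.8, 83.2 to 92.3 and 22.8 to 31.0 CPM against 18.1 to 23.1 with DMSO, and of the 2 that were tested Acta1 was higher and Mylpf lower with each. Their part in the result was not tested.

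RNA polymerase I and its factors had the smallest median of the 7 roles with piericidin and oligomycin. The median log2 fold change of the 4 genes was 0.45 with piericidin, 0.30 with antimycin and 0.36 with oligomycin. Polr1a, its largest subunit, was at 45.9, 47.6 and 47.9 CPM in the DMSO libraries and at 90.3, 82.3 and 90.0 with piericidin (log2 fold change 0.91, SE 0.08, adjusted p = 2.50e-11). Polr1b, the other large catalytic subunit, went from 33.1, 37.5 and 41.0 to 77.3, 67.8 and 60.9 CPM with oligomycin (log2 fold change 0.88, SE 0.10, adjusted p = 7.56e-09), so that the subunits answered most to different inhibitors. Ubtf, which binds ribosomal DNA and bends it for transcription, rose with piericidin (log2 fold change 0.25, SE 0.06, adjusted p = 3.05e-04), and its value with antimycin was negative and not called (log2 fold change -0.13, SE 0.06, adjusted p = 0.0523). Rrn3, which ties the polymerase to its promoter and carries the pair of E-boxes shown above, was at 146, 137 and 137 CPM with DMSO and 169, 165 and 167 with piericidin (log2 fold change 0.27, SE 0.07, adjusted p = 7.48e-04). With library totals alone the antimycin values of Rrn3, Bop1 and Nhp2 changed sign, to -0.02, -0.05 and -0.20.

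Nop56 rose furthest among the box C/D proteins with piericidin and antimycin. It encodes a core protein of these snoRNPs, and it was at 249, 246 and 252 CPM with DMSO, 878, 917 and 916 with piericidin, 693, 723 and 679 with antimycin and 479, 488 and 481 with oligomycin. The 4 groups did not overlap, and they stood in that order of inhibitors from high to low. Its log2 fold change was 1.88, SE 0.04 (adjusted p = 1.15e-25) with piericidin, 1.52, SE 0.04 with antimycin and 0.95, SE 0.04 with oligomycin. Its partner Nop58 rose by 1.18, 0.75 and 0.97 on the log2 scale. Rrp9, a protein of the snoRNP that guides the early cuts, rose most with oligomycin, from 58.6, 60.5 and 56.6 to 158, 139 and 135 CPM (log2 fold change 1.30, SE 0.07, adjusted p = 3.06e-16). The methyltransferase Fbl (fibrillarin) was scattered, at 17.0, 22.4 and 16.8 CPM with DMSO and 40.3, 29.97 and 42.0 with antimycin (log2 fold change 1.02, SE 0.26, adjusted p = 0.00126).

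The H/ACA proteins did not move together. Dkc1 (dyskerin), the enzyme that makes pseudouridine, rose from 127, 126 and 139 to 202, 221 and 210.5 CPM with piericidin (log2 fold change 0.71, SE 0.05, adjusted p = 2.81e-13) and by 0.89 with oligomycin. Nop10, the small protein that binds beside it, was the member that fell: it was at 47.1, 41.1 and 41.0 CPM with DMSO, 37.4, 31.9 and 36.9 with piericidin and 26.1, 26.7 and 26.3 with antimycin. Its log2 fold change was -0.26, SE 0.08 with piericidin (adjusted p = 0.00581) and -0.67, SE 0.08 with antimycin (adjusted p = 2.93e-08). With oligomycin it was higher instead, at 60.4, 54.2 and 52.1 CPM (log2 fold change 0.37, SE 0.08, adjusted p = 2.47e-04). Nhp2, the RNA-binding partner, changed little (0.30, SE 0.05 with piericidin; log2 fold change 0.10, SE 0.05, adjusted p = 0.091 with antimycin), and Gar1 rose with piericidin (log2 fold change 1.84, SE 0.32, adjusted p = 1.06e-05) at very low counts and did not pass with oligomycin (log2 fold change 0.71, SE 0.33, adjusted p = 0.0722).

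Among the abundant nucleolar proteins Npm1 carried the most RNA. It was at 1404, 1337 and 1354 CPM with DMSO, 2219, 2314 and 2283 with piericidin, 1853, 1873 and 1803 with antimycin and 2259, 2188 and 2202 with oligomycin. Every treated library lay above every DMSO library. Ncl rose by 0.71, 0.66 and 0.99 on the log2 scale with piericidin, antimycin and oligomycin, Nolc1, a phosphoprotein that accompanies snoRNPs, by 0.87, 0.73 and 0.55, and the GTPase Gnl3 (nucleostemin) by 0.88, 1.15 and 0.58. Ncl thus had its highest value with oligomycin and Gnl3 with antimycin.

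The small subunit processome rose as a whole, with medians over its 7 genes of 1.02, 1.00 and 0.70 with piericidin, antimycin and oligomycin. Nop14 led it, from 48.2, 47.2 and 49.9 CPM with DMSO to 171, 174 and 175 with piericidin (log2 fold change 1.86, SE 0.05, adjusted p = 6.04e-23), 128, 133 and 127 with antimycin and 144, 149 and 152 with oligomycin. Its partner Noc4l answered far less, at 0.66, 0.49 and 0.39 on the log2 scale. Of the proteins that join the precursor early, Utp4 went from 75.5, 72.2 and 78.4 to 196, 190.0 and 185 CPM with piericidin (log2 fold change 1.36, SE 0.06, adjusted p = 5.06e-18), and Wdr43 from 147, 137 and 130.2 to 349, 323 and 338 CPM with oligomycin (log2 fold change 1.28, SE 0.06, adjusted p = 4.18e-18). Heatr1, a very large scaffold, rose by 1.09, 1.00 and 1.14, Utp20 by 0.78, 0.61 and 0.70, and Utp15 by 0.51, 0.75 and 0.49.

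The large subunit factors had medians of 1.09, 0.98 and 0.78 over 11 genes. Pes1, Bop1 and Wdr12 form a complex that is needed to process large subunit RNA, and they rose unequally: with piericidin Wdr12 went from 71.9, 66.6 and 70.3 to 179, 196 and 186 CPM (log2 fold change 1.44, SE 0.09, adjusted p = 5.77e-15), Pes1 rose by 1.09 and Bop1 by 0.68 on the log2 scale. Nop2, a methyltransferase of large subunit RNA, rose from 129.6, 144 and 145 to 318, 344 and 328 CPM with antimycin (log2 fold change 1.27, SE 0.06, adjusted p = 4.01e-18) but only to 179, 181 and 162 with oligomycin (log2 fold change 0.32, SE 0.06, adjusted p = 2.52e-05). Rrs1, which helps bring the smallest ribosomal RNA into the particle, had the largest values and the widest scatter, with 11.2, 43.1 and 19.3 CPM for DMSO, 229, 96.0 and 232 for piericidin and 245, 166 and 223 for antimycin (log2 fold change 3.11, SE 0.61, adjusted p = 5.40e-05). Its DMSO libraries did not overlap with the treated ones, yet replicate 2 of piericidin lay far below the other 2 replicates. With piericidin the remaining factors rose by 1.22 for Rrp1b, 1.10 for Mybbp1a, 1.03 for Nip7, 0.94 for Noc2l, 0.69 for the RNA helicase Ddx21 and 0.58 for Nop16.

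Of the late factors of the small subunit, Rrp12, which takes part in export, and Nob1, the endonuclease that makes the last cut of small subunit RNA, rose most with antimycin. Rrp12 was at 48.3, 47.6 and 47.8 CPM with DMSO and 129, 147 and 141 with antimycin (log2 fold change 1.57, SE 0.08, adjusted p = 1.67e-17). Nob1 was at 50.1, 49.4 and 58.4 and 145, 144 and 148 CPM (log2 fold change 1.50, SE 0.07, adjusted p = 1.47e-17). Both rose less with oligomycin, by 0.64 and 0.92. Tsr1, a GTPase-like assembly factor, rose by 1.31 with piericidin, Bysl by 0.84, the adaptor Ltv1 by 0.77 and Nat10, which acetylates small subunit RNA, by 0.66.

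**Figure D3:**
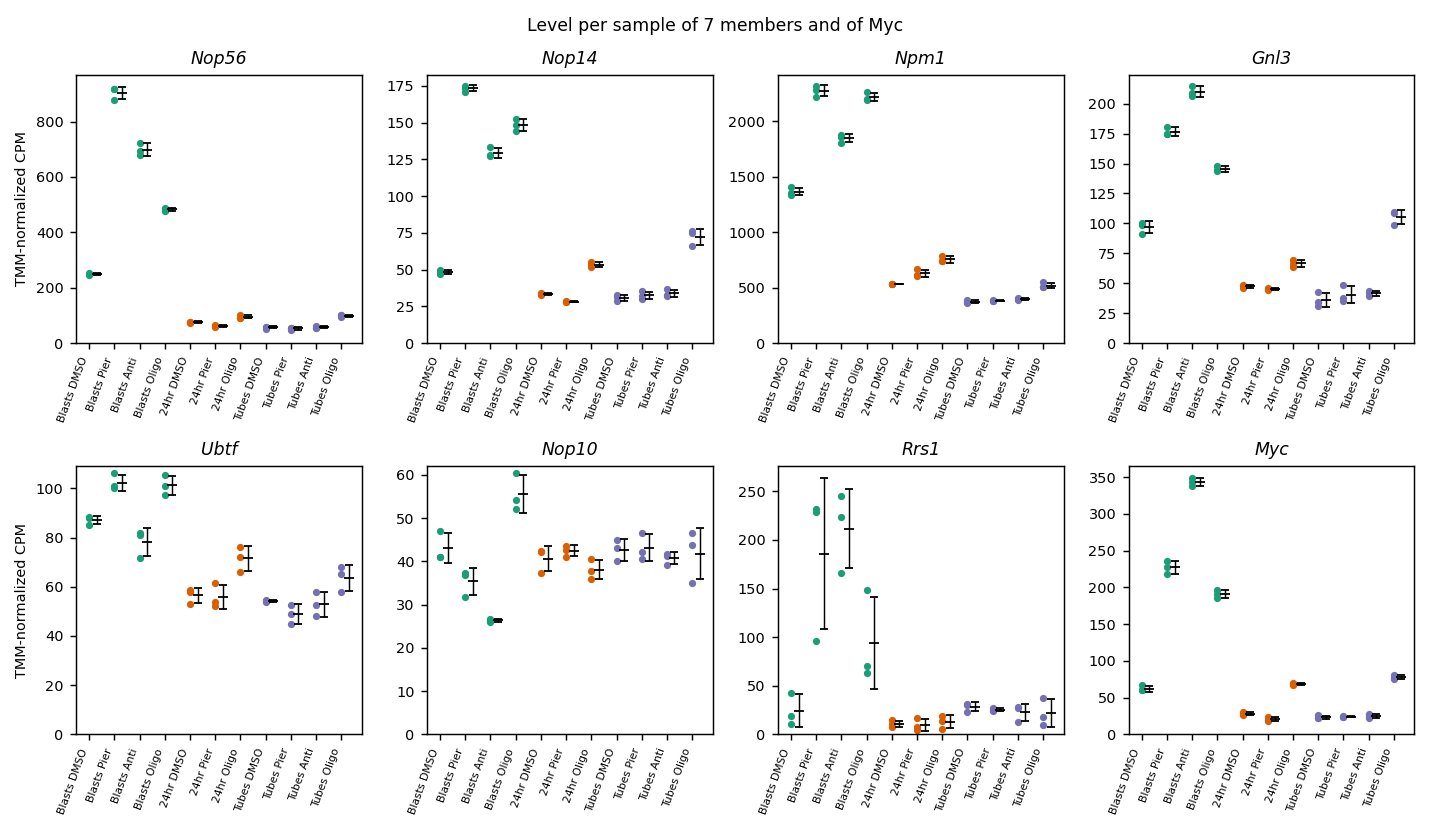
Levels of 7 members and of Myc in each library (points) of Luc myoblasts (green), 24-hour cells (orange) and myotubes (purple) by treatment, in TMM-normalised CPM from 0, with the group mean and SD as bars beside the points. Nop56 and Nop14 are higher with every inhibitor in myoblasts and with oligomycin in myotubes, Nop10 is lower with piericidin and antimycin in myoblasts, and Rrs1 scatters widely.

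A direct test between the inhibitors showed where the responses parted. Between antimycin and piericidin 4 members were higher with antimycin and 18 with piericidin (background 19.3% higher and 17.9% lower). The former were Nip7 (0.28), Gnl3 (0.26), Utp15 (0.24) and Nop2 (0.16), and the latter were led by Wdr12 (-0.71) and Polr1a (-0.46). Between piericidin and oligomycin 21 were higher with piericidin and 8 with oligomycin (background 20% higher and 19.2% lower). Nop56 (0.92), Rrp12 (0.86) and Nop2 (0.80) stood on the side of piericidin, and Nop10 (-0.63), Rrp9 (-0.33) and Ncl (-0.29) on that of oligomycin. Between antimycin and oligomycin the members divided almost evenly, 14 to 15 (background 26.1% higher and 23.9% lower), and with library totals alone 11 were higher and 18 lower (of all genes 2094 were higher and 4055 lower); Nop2 (0.95) was on the side of antimycin and Nop10 (-1.04), Polr1b (-0.56) and Dkc1 (-0.53) on that of oligomycin. These 3 comparisons share libraries.

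The second comparison asked whether an enzyme that oxidizes NADH alters the answer of these genes. Without an inhibitor few differences from the Luc line passed the test. With LbNOX none of the 40 was called by edgeR (background 1.3% higher and 1.38% lower; 1406 genes at an unadjusted p under 0.05), and none with mitoLbNOX (background 0.985% higher and 0.785% lower; 1375 genes at an unadjusted p under 0.05). With NDI1 Nop16 was higher (log2 fold change 0.22, SE 0.05, adjusted p = 0.00938) and no other member was called (background 2.74% higher and 1.87% lower). The call was not made in the runs that left 1 library in each NDI1 group, and the remaining run left out no NDI1 library.

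With piericidin NDI1 lines showed no called member of 40 by edgeR (background 0.00835% higher and 0% lower; 1005 genes at an unadjusted p under 0.05). The member median was 0.04, as against 0.90 in Luc myoblasts, and the difference between the responses was called for 34 members in the direction of a smaller rise and for 1, Nop10, in the other (background 21.2% higher and 21.5% lower). Nop56 was at 262 and 269 CPM in the DMSO libraries of this line and at 286 and 274 in those with piericidin, and its response differed from that of the Luc line (difference -1.79 on the log2 scale, SE 0.07, adjusted p = 1.13e-19). In LbNOX myoblasts 10 members rose with piericidin and none fell (background 5.01% higher and 3.86% lower), with a median of 0.11; with 1 replicate left out of each group 2 to 3 were called. Noc2l (log2 fold change 0.47, SE 0.11, adjusted p = 0.00383) and Rrp1b (0.32) led them. All 7 markers of proliferating cells were lower in those libraries, Mki67 (-0.45) and Ccne1 (-0.34) the most, and their part was not tested. The difference of the LbNOX response from that of Luc was negative for 35 members and positive for 1, Nop10 (background 22.3% higher and 22% lower). In mitoLbNOX myoblasts 23 members rose (background 6.37% higher and 4.82% lower; 15 to 19 with 1 replicate left out of each group), with a median of 0.27, led by Nop14 (log2 fold change 0.53, SE 0.05, adjusted p = 8.30e-09). Of the 7 markers of proliferating cells 6 were lower there, Ccnb1 not being called (-0.14). None of the 7 was called with piericidin in NDI1 myoblasts. The difference of the mitoLbNOX response from that of Luc was negative for 34 members and positive for 1, Nop10 (background 21.5% higher and 21.4% lower).

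Nop56 shows the range. With piericidin it reached 878, 917 and 916 CPM in Luc, 305, 322 and 313 in mitoLbNOX, 275, 300.1 and 275 in LbNOX and 286 and 274 in NDI1 myoblasts, from 249, 246 and 252, 268, 258 and 237, 258, 263 and 248 and 262 and 269 CPM with DMSO. The Luc libraries with piericidin stood far above all the others. Its response differed from that of the Luc line by -1.73, SE 0.06 with LbNOX and by -1.57, SE 0.06 with mitoLbNOX on the log2 scale. Nop10, the member that fell in Luc myoblasts, stayed at 45.6, 54.5 and 48.5 CPM in LbNOX with piericidin, against 44.8, 45.4 and 51.6 with DMSO, and its response was the one called in the other direction in all 3 lines (difference 0.34 on the log2 scale, SE 0.11, adjusted p = 0.0163 for LbNOX).

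With antimycin more members were called higher in mitoLbNOX than in LbNOX myoblasts. In LbNOX myoblasts the members were split, 12 higher and 12 lower (background 23.3% higher and 22.9% lower), around a median of 0.05 that lay between -0.04 and 0.08 with 1 replicate left out of each group, and with library totals alone 8 were higher and 16 lower (of all genes 1777 were higher and 3629 lower). In these libraries the 7 markers of proliferating cells summed to 1652 to 1689 CPM with DMSO and 1042 to 1070.2 with antimycin, 5 lower, Ccne1 higher (0.21) and Mcm5 not called (-0.10), and their part was not tested. Polr1a fell, from 50.9, 46.5 and 47.8 to 30.6, 31.7 and 37.6 CPM (log2 fold change -0.53, SE 0.08, adjusted p = 3.67e-06), as did Wdr43 (-0.43), Nob1 (-0.38), Gnl3 (-0.36) and Tsr1 (-0.33). Nop14 (log2 fold change 0.65, SE 0.05, adjusted p = 2.31e-11), Utp4, which went from 74.4, 76.0 and 68.2 to 114, 106 and 105 CPM, Noc4l (0.55), Rrp9 (0.44) and Bop1 (0.42) rose. Nob1 and Tsr1, among the strongest risers of Luc myoblasts, were thus among those that fell here. In mitoLbNOX myoblasts 33 members rose and none fell (background 24.8% higher and 22.9% lower), with a median of 0.45, led by Nop14 (log2 fold change 1.25, SE 0.05, adjusted p = 2.50e-18) and Rrp1b (0.94). There all 7 markers of proliferating cells fell, from sums of 1542 to 1664 to 982 to 1018 CPM. With LbNOX the difference from the Luc response was negative for 33 members and positive for 2, Nop10 and Bop1 (background 24.7% higher and 26.8% lower). With mitoLbNOX it was negative for 23 and positive for 3, Nop10, Ubtf and Polr1b (background 15.4% higher and 16.3% lower). For mitoLbNOX 16 to 21 were called in all with 1 replicate left out of each group. Nop10 fell in Luc myoblasts, so that its positive difference is not a larger fall. LbNOX and mitoLbNOX were not tested against each other.

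The rise with oligomycin was kept in large part under LbNOX: 37 members rose and none fell (background 17.5% higher and 17.7% lower), with a median of 0.50. Nop14 went from 46.4, 52.5 and 47.9 to 119, 115 and 114 CPM (log2 fold change 1.26, SE 0.05, adjusted p = 3.68e-18), and Noc2l, Rrp9, Wdr43 and Heatr1 rose by 0.88, 0.84, 0.80 and 0.79 on the log2 scale. Of the markers of proliferating cells 6 were lower, with a sum of 1249 to 1327 CPM. The response was smaller than in Luc for 13 members (background 3.8% higher and 4.18% lower; 4 to 8 with 1 replicate left out of each group), among them Wdr43 (-0.48), Rrp9 (-0.45) and Nop58 (-0.45). The enzymes' comparisons share the Luc libraries.

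**Figure D4:**
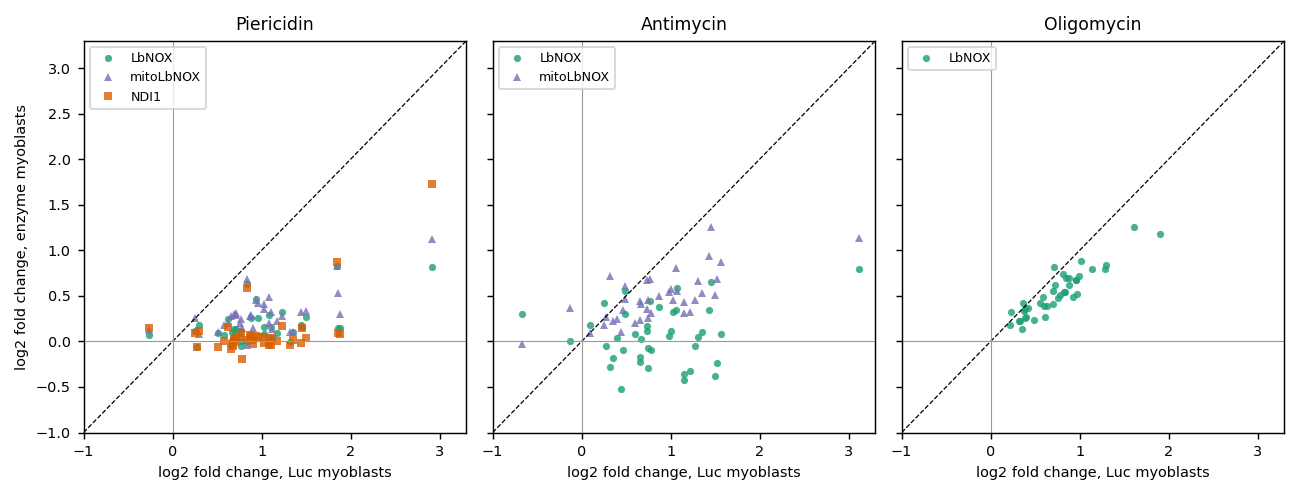
Log2 fold change of each member (points) in LbNOX, mitoLbNOX and NDI1 myoblasts (vertical axis) against that in Luc myoblasts (horizontal axis), with 1 panel for each inhibitor and a dashed line of equal change. The member medians with piericidin are 0.90 in Luc, 0.27 in mitoLbNOX, 0.11 in LbNOX and 0.04 in NDI1 myoblasts, and with oligomycin the points of LbNOX lie near the line or below it.

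The slower block by chloramphenicol left a small mark. After 48 hours 7 members were higher and none lower in Luc myoblasts (background 4.83% higher and 3.62% lower; 3 with library totals alone, when of all genes 366 were higher and 673 lower), with a median of 0.23. They were Rrp1b (log2 fold change 0.49, SE 0.10, adjusted p = 0.0151), Wdr12 (0.45), Nop14 (0.43), Mybbp1a (0.38), Npm1 (0.31), Nop56 (0.29) and Ncl (0.25). Npm1 was at 1184 and 1245 CPM with DMSO and 1529 and 1447 with chloramphenicol. Of the markers of proliferating cells Ccne1 (-0.38), Ccna2 (-0.29), Mcm5 (-0.27) and Cdk1 (-0.25) were lower in these Luc libraries, and Top2a, Ccnb1 and Mki67 were not called. Of the markers of undifferentiated or reserve cells Id3 was lower (-0.49), and Id1, Myf5 and Pax7 were not called. With LbNOX only Id3 of these markers was called (-0.40). Their part was not tested. In LbNOX myoblasts no member was called by edgeR (background 0.675% higher and 0.256% lower; 1498 genes at an unadjusted p under 0.05), and for no member was the response called different between the lines (background 0.0769% higher and 0.453% lower; 1181 genes at an unadjusted p under 0.05). Each of these groups had 2 libraries.

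The third comparison was between the states of the cells. These transcripts were lower in the cells moved to low serum, already after a day. In 24-hour cells 39 members were lower than in Luc myoblasts and none higher (background 33.3% higher and 29.9% lower), with a median of -1.02. In myotubes 38 were lower and none higher (background 35.6% higher and 33.6% lower), with a median of -1.11. The summed level was 6072 ± 104 (SD, n = 3) CPM in the myoblasts, 2791 ± 54.2 (SD, n = 3) in 24-hour cells and 2352 ± 3.90 (SD, n = 3) in myotubes, 0.460 and 0.387 times the myoblast level. Most of the difference from myoblasts was thus present at 24 hours.

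Dkc1 fell furthest. It was at 127, 126 and 139 CPM in myoblasts, 31.5, 35.5 and 31.7 in 24-hour cells and 30.9, 25.6 and 26.7 in myotubes (log2 fold change -2.23, SE 0.08, adjusted p = 8.82e-21 for myotubes against myoblasts). Nop56 fell from 249, 246 and 252 to 59.7, 58.8 and 52.4 CPM (log2 fold change -2.12, SE 0.06, adjusted p = 3.08e-23), followed by Utp20 (-1.995), Npm1 (-1.87) and Nop58 (-1.83). Nop10, which sits beside Dkc1 in the H/ACA complex, was at 47.1, 41.1 and 41.0 CPM in myoblasts and 43.0, 40.03 and 45.0 in myotubes, with overlapping groups (log2 fold change -0.01, SE 0.09, adjusted p = 0.956). By role the medians from myoblasts to myotubes were -0.63 for RNA polymerase I, -0.81 for the late small subunit factors, -1.13 for the large subunit, -1.14 for the processome, -1.28 for H/ACA, -1.58 for box C/D and -1.61 for the abundant nucleolar proteins. Rrp12, Rrn3 and Bop1 fell least among the called, by 0.20, 0.20 and 0.23.

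Between 24 hours and 4 days 13 members fell further and 5 rose (background 17% higher and 18.8% lower), with a median of -0.12. With the outer or inner well of the plate as a covariate, as read from a code in the labels, 7 fell and 4 rose, and the 24-hour libraries were in outer wells only. Utp20 (log2 fold change -0.60, SE 0.15, adjusted p = 0.00305), Utp15 (-0.55), Npm1 (-0.52), Nob1 (-0.46) and Gnl3 (-0.41) led the former. Rrs1 (log2 fold change 1.37, SE 0.51, adjusted p = 0.0366), Rrp12 (0.32), Nop16 (0.26), Rrn3 (0.22) and Bop1 (0.17) made up the latter.

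The fourth comparison set the inhibitors on myotubes. Most members were called higher with oligomycin and few or none with piericidin or antimycin, and these inhibitors were not tested against each other here. With oligomycin 36 of 39 members tested rose and none fell (background 16.9% higher and 16.4% lower), with a median of 0.70, and the summed level went from 2352 ± 3.90 (SD, n = 3) to 3822 ± 206 (SD, n = 3) CPM of the library total. With piericidin Bop1 fell (log2 fold change -0.21, SE 0.06, adjusted p = 0.0188) and no other member was called (background 4.15% higher and 4.84% lower). With antimycin Nob1 rose (log2 fold change 0.26, SE 0.08, adjusted p = 0.0407) and no other was called (background 6.64% higher and 6.27% lower). The Bop1 call was not made in every run with 1 replicate left out of each group, and the Nob1 call in none of them. Gar1 did not reach the count minimum in these myotubes without virus.

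Gnl3 answered most. It was at 42.3, 31.0 and 34.1 CPM with DMSO and 108, 98.6 and 109.5 with oligomycin (log2 fold change 1.55, SE 0.11, adjusted p = 6.94e-11). Nop58 went from 64.2, 56.8 and 61.0 to 143, 147 and 145 CPM (log2 fold change 1.25, SE 0.05, adjusted p = 2.22e-15), and Nop14 from 28.9, 32.9 and 31.0 to 76.1, 66.1 and 74.6 (log2 fold change 1.21, SE 0.10, adjusted p = 5.09e-10). The groups of these genes did not overlap. Rrp12 rose by 1.24, Heatr1 by 1.17 and Tsr1 by 1.13 on the log2 scale. The members not called were Fbl (-0.54), Rrs1 (-0.38) and Nop10, which stood at 46.5, 35.1 and 43.7 CPM with oligomycin against 43.0, 40.03 and 45.0 (log2 fold change -0.04, SE 0.10, adjusted p = 0.8). By role the medians were 0.41 for RNA polymerase I, 0.43 for H/ACA, 0.94 for box C/D and 0.96 for the processome. The markers of proliferating cells were at 174 to 188 CPM with oligomycin and 167 to 213 with DMSO, with Mcm5 the 1 of 7 called, lower. The 7 markers of myotubes summed to 16124 to 16580.0 CPM with oligomycin and 14083 to 14455 with DMSO, with Myog (1.29 on the log2 scale) and Acta1 (0.35) higher and 3 lower. The 4 markers of undifferentiated or reserve cells summed to 87.9 to 92.3 and 59.4 to 74.6 CPM, with Myf5 (1.49) called. The part of these markers in the result was not tested.

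Levels under oligomycin were lower when another treatment was added. With piericidin added 35 members were lower than with oligomycin alone and none higher (background 8.46% higher and 12.4% lower), with a median of -0.72. With BAM15 added 34 were lower and none higher (background 12% higher and 14.1% lower), with a median of -0.81. In hypoxia 33 were lower and 1, the scattered Fbl, higher (background 16.7% higher and 16.5% lower), with a median of -0.60. Gnl3 was at 108, 98.6 and 109.5 CPM with oligomycin alone, 40.7, 46.0 and 47.1 with piericidin added, 33.5, 45.1 and 37.3 with BAM15 added and 41.3, 43.6 and 36.5 in hypoxia. Those levels lay close to the DMSO libraries. Within hypoxia no member was called with oligomycin by edgeR (background 2.04% higher and 2.22% lower; 1890 genes at an unadjusted p under 0.05), with a median of 0.01. Among the markers of myotubes Myog was lower as well, by log2 fold changes of -1.31 with piericidin added, -1.26 with BAM15 added and -0.79 in hypoxia. Ckm (0.28) and Acta1 (0.13) were higher with piericidin added, and Ckm (0.22) and Myh3 (0.17) with BAM15 added. In hypoxia Mymk was higher (0.15) and Myh3 lower (-0.21). Of the markers of undifferentiated or reserve cells Myf5 (-1.04, -0.83 and -0.88) and Id1 (-0.60, -0.88 and -0.61) were lower with each. Id3 was lower with BAM15 added (-0.58) and in hypoxia (-1.25), and Pax7 was higher in hypoxia (0.57). All 7 markers of proliferating cells were lower in hypoxia with oligomycin than with oligomycin alone, summing to 39.1 to 44.6 against 174 to 188 CPM, while none of them was called with piericidin added and 1 was lower with BAM15 added. The part of these markers was not tested.

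BAM15 and hypoxia were each set against DMSO and not against each other. BAM15 lowered 17 members and raised 1 (background 13.2% higher and 12.2% lower), with a median of -0.18. Nop56 fell from 59.7, 58.8 and 52.4 to 41.9, 44.6 and 37.8 CPM (log2 fold change -0.45, SE 0.08, adjusted p = 2.69e-04), Bysl by 0.44 and Nolc1 by 0.42 on the log2 scale, with larger falls in Rrs1 (-1.78) and Fbl (-1.05), the genes of wide scatter. Npm1 alone rose, from 368, 388 and 363 to 437, 449.8 and 457 CPM (log2 fold change 0.27, SE 0.04, adjusted p = 3.86e-06). Hypoxia raised 8 members and lowered 1, Bop1 (background 12.3% higher and 9.78% lower; 2 to 5 called with 1 replicate left out of each group, and with library totals alone 2 were higher and 1 lower, when of all genes 973 were higher and 1795 lower), with a median of 0.09. Rrp12 (log2 fold change 0.35, SE 0.08, adjusted p = 0.00209), Nob1 (0.29), Tsr1 (0.29), Npm1 (0.24) and Pes1 (0.24) led them. The 7 markers of proliferating cells were at 31.9 to 38.0 CPM in hypoxia and 167 to 213 in normal oxygen, all lower. Of the 7 of myotubes 2 were higher and 3 lower in hypoxia, and of the 4 of undifferentiated or reserve cells Id3 (-1.50) and Id1 (-0.50) were lower. With BAM15 Mcm5 alone of the proliferation markers was lower (-1.27), and 3 markers of myotubes were higher and 2 lower. Myf5 was higher (0.83) and Id3 (-0.55) and Id1 (-0.48) lower with BAM15. The part of these markers was not tested.

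In myotubes with adenovirus the members again rose with oligomycin, and none was called with piericidin. With oligomycin 35 members rose in GFP myotubes (background 13.8% higher and 12.1% lower; median 0.83) and 36 in LbNOX myotubes (background 16.6% higher and 15.4% lower; median 0.92), and none fell in either. Gnl3 went from 34.7 and 37.7 to 113 and 108 CPM in GFP (log2 fold change 1.63, SE 0.09, adjusted p = 1.22e-08) and from 40.3, 32.2 and 39.5 to 110.2, 106 and 107 in LbNOX myotubes (log2 fold change 1.53, SE 0.08, adjusted p = 1.58e-09). With piericidin no member was called by edgeR in GFP (background 1.37% higher and 1.72% lower; 1942 genes at an unadjusted p under 0.05) or in LbNOX myotubes (background 3.24% higher and 3.54% lower; 2706 genes). For LbNOX alone no member was called (background 0.0161% higher and 0.00807% lower; 748 genes at an unadjusted p under 0.05). No member's response was called different between GFP and LbNOX myotubes with piericidin (background 0% higher and 0% lower; 569 genes at an unadjusted p under 0.05) or with oligomycin (background 0% higher and 0% lower; 525 genes). The SE of these differences ran from 0.054 (Npm1) to 0.90 (Gar1) with oligomycin and from 0.054 to 0.94 with piericidin on the log2 scale, so that differences of some size could go uncalled. Tsr1 was at 0.28, SE 0.10 with oligomycin and 0.38, SE 0.10 with piericidin, Polr1a at 0.47, SE 0.14 with piericidin and Gnl3 at -0.10, SE 0.12 with oligomycin.

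The 24-hour cells received piericidin or oligomycin. Oligomycin raised 29 of 39 members and lowered none (background 10.6% higher and 10.1% lower; 17 to 20 with 1 replicate left out of each group), with a median of 0.39. Rrp12 went from 32.7, 31.4 and 35.2 to 58.4, 59.5 and 50.9 CPM (log2 fold change 0.78, SE 0.08, adjusted p = 5.00e-05), followed by Mybbp1a (0.75), Noc2l (0.71), Nop14 (0.69) and Rrp9 (0.69). In those libraries the 7 markers of proliferating cells summed to 210.3 to 223 CPM with oligomycin and 280.4 to 317 with DMSO, with 5 lower and none higher. Of the 7 markers of myotubes Myog was higher (0.44) and 3 were lower, and of the 4 of undifferentiated or reserve cells Myf5 (1.02) and Id1 (0.48) were higher. Their part was not tested. Piericidin raised Npm1 (log2 fold change 0.24, SE 0.04, adjusted p = 0.00945) and lowered Nop56 (log2 fold change -0.29, SE 0.07, adjusted p = 0.0394), and no other member was called (background 1.37% higher and 1.36% lower); with 1 replicate left out of each group no member was called. Nop56 was at 77.1, 77.4 and 71.7 CPM with DMSO and 64.8, 58.5 and 60.6 with piericidin. Of the 39 members tested in all 3 states, 29 were called higher with oligomycin in Luc myoblasts, 24-hour cells and myotubes alike, as were 6.79% of the 11089 genes tested in all 3.

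The difference between the states was tested as a difference of responses. With piericidin the difference from the response of Luc myoblasts was negative for 39 members in 24-hour cells and positive for Nop10 (background 22.8% higher and 23.8% lower). In myotubes it was negative for 39 members and positive for none (background 22.5% higher and 24% lower). For Nop56 the difference was -2.18, SE 0.08 in 24-hour cells and -1.98, SE 0.08 in myotubes on the log2 scale. With antimycin the difference in myotubes was negative for 34 members and positive for 1, Nop10 (background 23.8% higher and 23.9% lower). Nop10 fell with antimycin in Luc myoblasts and was not called in myotubes, so that its positive difference is not a larger response. With library totals alone the differences of Rrn3 and Dkc1 with antimycin were 0.04 and 0.01. With oligomycin 24-hour cells responded less in 20 members and more in none (background 11.8% higher and 12.8% lower; 13 to 16 with 1 replicate left out of each group). In myotubes 6 responded more and 7 less (background 15.5% higher and 13.2% lower; 7 to 11 called in all with 1 replicate left out of each group, and 7 with outer or inner well as a covariate), around a median of -0.03. With library totals alone 12 were higher and 3 lower around a median of 0.13, when of all genes 3023 were higher and 981 lower (by TMM 1983 and 1683). Gnl3 (difference 0.97 on the log2 scale, SE 0.12, adjusted p = 5.12e-07), Nop2 (0.69), Rrp12 (0.60), Tsr1 (0.53), Utp4 (0.36) and Nop58 (0.28) responded more in myotubes, and Rrs1, Fbl, Nip7, Nop10, Nop14, Ncl and Npm1 less.

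Myc, the activator named above, was measured beside the members. In Luc myoblasts it was at 59.9, 59.9 and 67.0 CPM with DMSO, 218, 228 and 236 with piericidin, 349, 338 and 344 with antimycin and 196, 191 and 186 with oligomycin. It rose with every inhibitor, by 1.89 (SE 0.06), 2.50 (SE 0.06) and 1.61 (SE 0.06) on the log2 scale, and most with antimycin, where the member median was lower than with piericidin. With DMSO Myc was already higher than in Luc in LbNOX (0.26, SE 0.06) and NDI1 myoblasts (0.30, SE 0.07). It was not called there in mitoLbNOX myoblasts (0.05, SE 0.06). With piericidin Myc changed by 0.08, SE 0.06 in LbNOX (adjusted p = 0.473), 0.45, SE 0.06 in mitoLbNOX and 0.08, SE 0.07 in NDI1 myoblasts (adjusted p = 0.754). With antimycin it fell in LbNOX myoblasts, from 78.0, 71.2 and 75.02 to 37.8, 31.2 and 33.6 CPM (log2 fold change -1.11, SE 0.06, adjusted p = 3.12e-15), where the members were split, and rose in mitoLbNOX myoblasts (1.05, SE 0.06). With oligomycin it rose in LbNOX myoblasts (0.78, SE 0.06).

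In myotubes Myc rose with oligomycin, BAM15 and hypoxia. Oligomycin took Myc from 25.8, 22.5 and 22.0 to 81.5, 78.3 and 75.9 CPM (log2 fold change 1.74, SE 0.09, adjusted p = 7.24e-14). It rose with BAM15 too, to 37.8, 42.3 and 40.3 CPM (log2 fold change 0.79, SE 0.09, adjusted p = 4.07e-07), where 17 members fell, and with hypoxia, to 38.7, 38.0 and 35.2 CPM (log2 fold change 0.69, SE 0.09, adjusted p = 2.03e-06), where 8 members rose by TMM (background 12.3% higher and 9.78% lower) and 2 with library totals alone. Against oligomycin alone it was lower, as the members were, with piericidin added (-1.48, SE 0.09), with BAM15 added (-0.72, SE 0.08) and in hypoxia (-1.04, SE 0.09), and within hypoxia its value with oligomycin was 0.0044, SE 0.09 and not called. With chloramphenicol it rose in Luc myoblasts (log2 fold change 0.65, SE 0.09, adjusted p = 0.00299) and was not called in LbNOX myoblasts (0.04, SE 0.09). In 24-hour cells it fell with piericidin (log2 fold change -0.45, SE 0.10, adjusted p = 0.0357) and rose with oligomycin (1.31, SE 0.09). It was lower in 24-hour cells (-1.14, SE 0.08) and in myotubes (-1.41, SE 0.08) than in myoblasts. Mycn, a relative of Myc, had at most 3 counts in a library. The 9 genes with an E-box in the window had medians of 1.09, 1.07 and 0.61 on the log2 scale in Luc myoblasts for piericidin, antimycin and oligomycin, and the 26 genes with a promoter sequence and no E-box 0.88, 0.74 and 0.79. With oligomycin the medians were 0.90 with and 0.70 without an E-box in myotubes, and 0.46 and 0.39 in 24-hour cells (9 and 25 genes). For myotubes against myoblasts they were -1.05 and -1.14 (9 and 26 genes). These values are a description without a test.

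**Figure D5:**
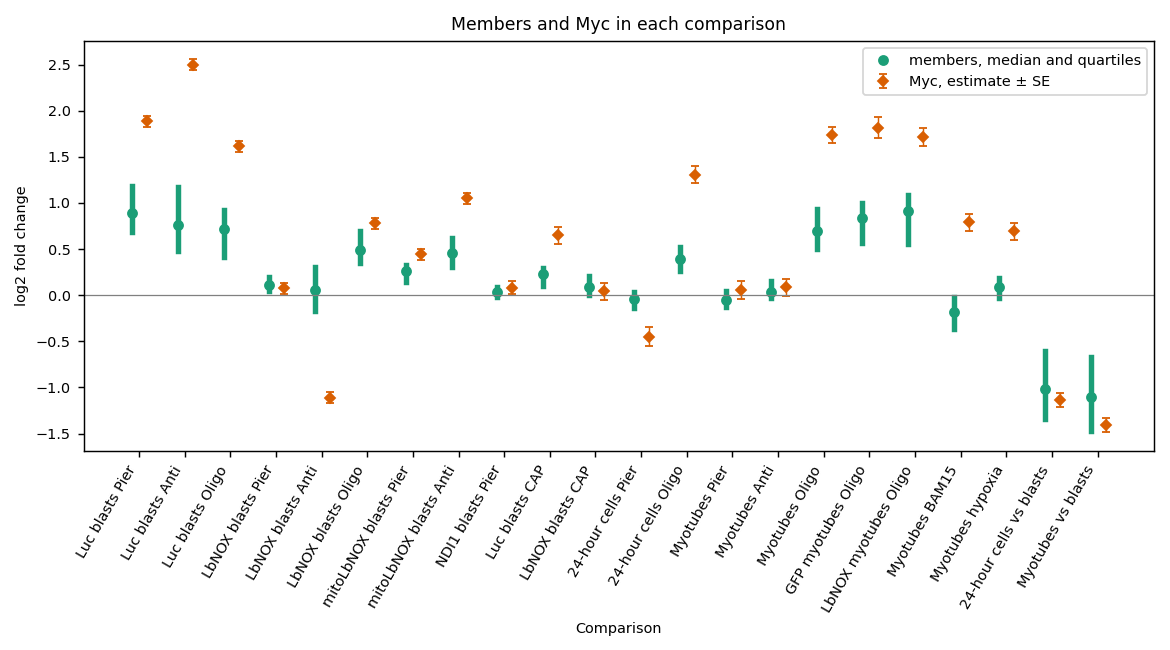
Median log2 fold change of the members with the quartiles (green) and log2 fold change of Myc ± SE (orange) in each comparison along the horizontal axis; many of the comparisons share control libraries. With BAM15 Myc is higher while the member median is below 0, and with antimycin in LbNOX myoblasts Myc is lower while the member median is near 0.

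Atf4 and Ddit3, transcription factors of the integrated stress response, rose with the inhibitors in Luc myoblasts: Atf4 by 2.39 (SE 0.03), 2.78 (SE 0.03) and 1.66 (SE 0.03) and Ddit3 by 4.60 (SE 0.07), 5.23 (SE 0.07) and 4.08 (SE 0.07) on the log2 scale with piericidin, antimycin and oligomycin. In LbNOX myoblasts with antimycin Atf4 fell (log2 fold change -0.51, SE 0.03, adjusted p = 7.46e-14) and Ddit3 rose (log2 fold change 1.17, SE 0.07, adjusted p = 1.46e-14). Atf4 was higher with piericidin in LbNOX (0.55) and mitoLbNOX myoblasts (0.99), with antimycin in mitoLbNOX (1.98) and with oligomycin in LbNOX myoblasts (1.48), and was not called with piericidin in NDI1 myoblasts (0.12). With DMSO Atf4 (0.18) and Ddit3 (0.59) were already higher in NDI1 than in Luc myoblasts. Neither was called in LbNOX or mitoLbNOX myoblasts with DMSO. In 24-hour cells it rose with oligomycin (1.48) and fell with piericidin (-0.24). In myotubes with oligomycin Atf4 rose by 1.69 (SE 0.05) and Ddit3 by 4.06 (SE 0.08). Both also rose there with BAM15, where 17 members fell (Atf4 by 0.63 (SE 0.05), Ddit3 by 2.05 (SE 0.08)), and with antimycin, where 1 member was called (Atf4 by 0.29 (SE 0.05), Ddit3 by 0.93 (SE 0.08)). Within hypoxia both rose with oligomycin, Atf4 by 0.35 (SE 0.05) and Ddit3 by 0.82 (SE 0.08). No member was called in that comparison (background 2.04% higher and 2.22% lower). Against DMSO Ddit3 also rose in myotubes with piericidin (0.36) and with hypoxia (0.50), where Atf4 was not called (-0.04 and 0.02). Against oligomycin alone Atf4 was lower with piericidin added (-1.02), with BAM15 added (-0.87) and in hypoxia (-1.32), as was Ddit3 (-2.57, -1.77 and -2.73).

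The rest of the pathway, a list of 106 further ribosome biogenesis genes of which 105 were tested, was counted in the same way. With piericidin in Luc myoblasts 87 of 105 were higher and 2 lower (background 30.9% higher and 30.8% lower), with antimycin 82 of 105 were higher and 4 lower (background 32.1% higher and 31.1% lower) and with oligomycin 87 of 105 were higher and 1 lower (background 24.5% higher and 26.3% lower). In LbNOX myoblasts 6 of 105 were higher and 0 lower (background 5.01% higher and 3.86% lower) with piericidin, 32 of 105 were higher and 21 lower (background 23.3% higher and 22.9% lower) with antimycin and 74 of 105 were higher and 0 lower (background 17.5% higher and 17.7% lower) with oligomycin. In mitoLbNOX myoblasts 23 of 105 were higher and 0 lower (background 6.37% higher and 4.82% lower) with piericidin and 66 of 105 were higher and 6 lower (background 24.8% higher and 22.9% lower) with antimycin, and in NDI1 myoblasts 0 of 105 were higher and 0 lower (background 0.00835% higher and 0% lower). In myotubes 70 of 105 were higher and 0 lower (background 16.9% higher and 16.4% lower) with oligomycin and 4 of 105 were higher and 20 lower (background 13.2% higher and 12.2% lower) with BAM15, and myotubes against myoblasts 3 of 105 were higher and 87 lower (background 35.6% higher and 33.6% lower).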

How the data were processed

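RNA of 96 C2C12 samples was made into libraries that do not keep the strand (Smart-seq2). The authors demultiplexed reads with bcl2fastq 2.20.0.422 and, per the study's methods, estimated counts with kallisto 0.44 against mouse transcripts with the transgenes added; the deposited values are estimated counts per gene, whole numbers without normalisation, and were used as they stand. Estimated counts can divide reads between near-identical transcripts and overlapping genes. Samples were grouped by their labels.

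Counts were tested with edgeR 4.0.16 in R 4.3.3 (TMM, quasi-likelihood F test, Benjamini-Hochberg adjustment over all genes of a comparison, threshold 0.05) in 6 fits covering 50 comparisons. A gene needed 16 counts in every replicate of at least 1 group of the fit. The SE was derived from the fold change and its F value. The program was tested on simulated counts. Members were named mainly from the called ones with the 5 largest changes in each direction, not always all of them, and from those called against the majority. Others were given for their role. The members, the lists and the tests were chosen with earlier results of these data known. Alternatives were DESeq2 1.42.0, its size factors, library totals, no count filter, wells, replicate block, only the groups compared and leaving out replicates. No promoter sequence was used for 5 members.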

Additional observations from a re-analysis of the deposited data

Results flagged for a closer look

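These results stood out because the response of the members differed between groups of cells when the difference of responses itself was tested in edgeR. Against Luc myoblasts, the response to piericidin was called different for 36 of the 40 members with LbNOX (when 22.3% of all genes were called higher and 22% lower, shares given in that order for the other comparisons), for 35 with mitoLbNOX (21.5% and 21.4%) and for 35 with NDI1 (21.2% and 21.5%). The response to antimycin differed for 35 members with LbNOX (24.7% and 26.8%) and for 26 with mitoLbNOX (15.4% and 16.3%), and that to oligomycin for 13 with LbNOX (3.8% and 4.18%). Between myotubes and Luc myoblasts the response differed for 39 members with piericidin (22.5% and 24%), 35 with antimycin (23.8% and 23.9%) and 13 with oligomycin (15.5% and 13.2%), the last a share near that of all genes. Between 24-hour cells and Luc myoblasts it differed for 40 members with piericidin (22.8% and 23.8%) and for 20 with oligomycin (11.8% and 12.8%). The comparisons against Luc myoblasts share those libraries, and myoblasts differ from the other cells in virus, doxycycline and serum as well as in state, which cannot be told apart.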

How the results depend on the processing

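The member median of the rise with the inhibitors in Luc myoblasts and with oligomycin in myotubes, and of the fall with state, kept its direction in every alternative run. The number of calls stayed within 1.5 times that of the main run. Single members could change sign, as given below for antimycin in Luc with library totals. Settings that moved a count of called members by more than that are as follows, each count followed by that of TMM where it is a pair. Library totals alone (added after the data were seen, and moving the split of all called genes by over 10 points in 31 of 50 comparisons) gave 2 in place of 10 for piericidin in LbNOX myoblasts, 17 for 26 for the antimycin difference with mitoLbNOX, 3 for 7 for chloramphenicol in Luc, 2 for 1 for antimycin in myotubes, 3 for 9 for hypoxia, 1 for 0 for piericidin in LbNOX myotubes and 13 for 20 for the oligomycin difference of 24-hour cells. Without the count filter the same comparisons gave 6 for piericidin in LbNOX myoblasts, 0 for antimycin in myotubes, 4 for hypoxia and 1 for piericidin in LbNOX myotubes, and 2 in place of 0 for piericidin in NDI1 myoblasts, 1 for 0 for LbNOX and 1 for 0 for mitoLbNOX against Luc, 0 for 1 for NDI1 against Luc, 4 for 0 for chloramphenicol in LbNOX and 1 for 0 for its difference between lines. DESeq2's Wald test called 2 for chloramphenicol in LbNOX and 0 for antimycin in myotubes, and otherwise 0 wherever edgeR called 0; its size factors in edgeR gave 0 for antimycin in myotubes and 1 for piericidin in LbNOX myotubes. Fitting only the groups compared gave 4 for piericidin in LbNOX myoblasts and 0 for NDI1 against Luc and for piericidin and antimycin in myotubes. The outer or inner well as a covariate gave 2 for NDI1 against Luc, 11 for 18 for myotubes against 24-hour cells and 7 for 13 for the oligomycin difference of myotubes; it was not run for the 24-hour fit, which had outer wells only.

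With 1 replicate left out of each group the counts were 2 to 3 for piericidin in LbNOX myoblasts, 15 to 19 for it in mitoLbNOX (23), 4 to 8 for the oligomycin difference with LbNOX, 16 to 21 for the antimycin difference with mitoLbNOX, 0 to 1 for NDI1 against Luc, 0 to 1 for piericidin and 0 to 0 for antimycin in myotubes, 2 to 5 for hypoxia, 0 to 0 for piericidin (2) and 17 to 20 for oligomycin (29) in 24-hour cells, 7 to 11 for the oligomycin difference of myotubes and 13 to 16 for that of 24-hour cells. A group left with 1 library is assumed to vary like the others, and for chloramphenicol no residual degrees of freedom were left, so that no test was made. Groups of 2 replicates lost no library in the run without replicate 3. The member median reversed for antimycin against oligomycin in Luc (-0.12 with library totals, -0.021 to 0.024 with 1 replicate left out) and for antimycin in LbNOX myoblasts (-0.075 with library totals, -0.037 to 0.079 with 1 replicate left out). It also changed sign for the oligomycin difference of myotubes (-0.026 by TMM, 0.13 with library totals, 0.0060 without replicate 1) and for piericidin in GFP myotubes (0.010 by TMM, -0.042 with library totals), and within 0.03 of 0 for mitoLbNOX against Luc, oligomycin in hypoxia and the piericidin difference of LbNOX myotubes. Members that changed sign with library totals were Nhp2 (-0.20), Bop1 (-0.047) and Rrn3 (-0.022) with antimycin in Luc, Ncl (-0.10) with antimycin in LbNOX, and Rrn3 (0.044) and Dkc1 (0.0069) in the antimycin difference of myotubes. The cause was not tested.

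The ratio of summed levels moved by more than the replicate spread from 1.62 to 1.89 (TMM) and 1.76 (without Ncl and Npm1) with piericidin, from 1.39 to 1.67 and 1.53 with antimycin and from 1.56 to 1.71 (TMM) with oligomycin in Luc, from 1.30 to 1.33 and 1.26 with oligomycin in 24-hour cells, from 0.460 to 0.507 (without Ncl and Npm1) for 24-hour cells and from 0.387 to 0.403 and 0.462 for myotubes against myoblasts. The replicate number as a block changed no count by over 1.5 times (6 for 7 for chloramphenicol in Luc, 39 for 37 for oligomycin in LbNOX myoblasts, 31 for 29 for oligomycin in 24-hour cells). The correlation of deviations between samples with the same number averaged -0.041 to 0.054 over the 6 fits, and single pairs ran from -0.33 to 0.38, so the numbers were not taken as pairs. Low counts limit Gar1, with 4 to 115 a library, and the scatter of Rrs1 and Fbl limits both.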

Other observations

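Rrs1 and Fbl, the members of widest scatter with enough counts, scattered together. Over the 96 libraries, with the mean of each group taken off, their log2 levels had a correlation of 0.61, the highest of the 780 pairs of members, for which the median was 0.086. These points share libraries and depth, and the value is a description. In Luc myoblasts with piericidin replicate 2 was the lowest for both, with Rrs1 at 96.0 against 229 and 232 CPM.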
